A study of Mus musculus with 20 samples.

Results

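Germinal centre B cells that expressed IgM were set against those that expressed IgG in the same lymph nodes. A cell entered if the authors' annotation placed it in the dark zone (DZ), the light zone (LZ) or a light-to-dark zone state (LZtoDZ) and if it held at least 10 counts over Ighm, Ighg1, Ighg2b, Ighg2c and Ighg3, the constant region genes of IgM and of the IgG subclasses. It was called IgM where Ighm made up at least 0.9 of that sum and IgG where Ighm made up at most 0.1. This left 104 IgM cells and 397 IgG cells, together 501 of the 778 annotated germinal centre cells and of the 1367 cells of the series. The 5 heavy chain genes chose the cells, so they enter no test.

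C57BL/6 mice had been immunised with NP-KLH, the hapten NP on a carrier protein, in Sigma Adjuvant System, and had received tamoxifen by gavage 4 days before the nodes were taken on day 15. Single B cells and plasma cells that carried eYFP were sorted into wells with their stains recorded. IgM and IgG cells share the immunisation and the tamoxifen. The labels do not give the age or number of the mice, nor the promoter behind the eYFP label. The 20 plates carry 2 sampleIDs, C57BL/6M with 62 IgM and 210 IgG cells and C57BL/6F with 42 IgM and 187 IgG cells, and the letters stand in a column named Sexe. Sex, animal and handling cannot be told apart, so each comparison was made within plates, and a p-value covers only the spread over plates. At least 5 cells of each class were held by 12 plates, 9 of C57BL/6M and 3 of C57BL/6F, with 79 IgM cells (5 to 11 per plate) and 245 IgG cells (14 to 27 per plate).

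In a germinal centre, activated B cells divide and mutate their antibody genes in the dark zone and are selected for antigen binding with T cell help in the light zone. Class switching cuts out the Ighm constant exons and joins the rearranged V, D and J segments to a downstream constant region such as Ighg1, so IgM and IgG cells of one clone carry the same joined segments before different constant regions. In mice of this strain, the response to NP is known for the heavy chain segment IGHV1-72 (also called VH186.2) and for a replacement of tryptophan at codon 33 that raises the affinity for NP.

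The sequences that part the classes are the starts of the constant regions, which lie on chromosome 12, minus strand, of the mm10 build. Ighm spans chr12:113418558-113422730, Ighg1 chr12:113325240-113330523, Ighg2b chr12:113302965-113307933, Ighg2c chr12:113285325-113288932 and Ighg3 chr12:113356224-113361232 in GENCODE vM21. The capitals mark the 5 bases that the authors' assembled heavy chains still hold after the J segment. Within these 5 bases Ighg1, Ighg2b and Ighg2c are the same.
Ighm: AGAGTcagtccttcccaaatgtcttccccc
Ighg1: CCAAAacgacacccccatctgtctatccac
Ighg2b: CCAAAacaacacccccatcagtctatccac
Ighg2c: CCAAAacaacagccccatcggtctatccac
Ighg3: CTACAacaacagccccatctgtctatccct

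A clone with members in both classes shows the switch base by base. It used IGHV1-15, IGHD1-1 and IGHJ4 and had 1 IgM cell and 3 IgG cells, all on C57BL/6M plates. The lines run from the conserved cysteine codon of the V segment to the end of the assembled chain, with the constant region bases in capitals.
IgM cell 1: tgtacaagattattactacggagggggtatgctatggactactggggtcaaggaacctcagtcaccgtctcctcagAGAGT
IgG cell 1: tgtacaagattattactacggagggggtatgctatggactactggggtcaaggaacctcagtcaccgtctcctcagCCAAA
IgG cell 2: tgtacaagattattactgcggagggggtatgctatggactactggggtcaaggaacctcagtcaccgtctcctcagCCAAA
IgG cell 3: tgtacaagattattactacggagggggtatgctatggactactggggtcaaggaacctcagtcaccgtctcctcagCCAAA
Before the capitals the IgM cell and IgG cells 1 and 3 did not differ, and IgG cell 2 differed by A18G, counted from the first base of the lines with the IgM base first. In the V segment the IgM cell carried C309T against the germline, counted from 1 at the 5′ end of the V segment in the gapped IMGT numbering. IgG cell 3 carried the same C309T and T230C. IgG cell 1 carried C164T, and IgG cell 2 carried A200C and A231T.

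The assembled chains gave a reading of the class that the selection had not used. An assembled heavy chain was present for 70 IgM cells and 252 IgG cells. It ended in the IgM bases in 65 of the 70 IgM cells and in IgG bases in 4, and it ended in IgG bases in 248 of the 252 IgG cells (12 of them Ighg3) and in IgM bases in 2. A further 105 germinal centre cells had a share between the cut-offs, and their assembled chains ended in IgM bases in 30 and in IgG bases in 45 of 76 cells. Another 172 had fewer than 10 heavy chain counts. Of the IgM cells, 55 had no IgG count at all, and of the IgG cells, 335 had no Ighm count. Just inside the IgM cut-off 12 cells had shares of 0.9 to 0.949, and just outside it 8 cells had 0.857 to 0.896. Just inside the IgG cut-off 11 cells had 0.0526 to 0.1, and just outside it 5 cells had 0.111 to 0.128.

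**Figure D1:**
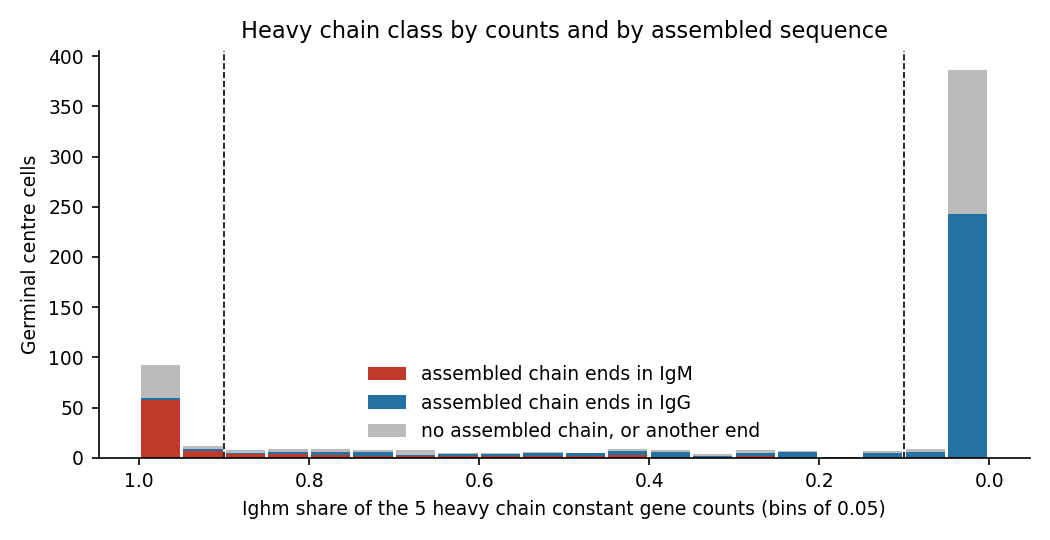
Number of germinal centre cells with 10 or more heavy chain counts (vertical axis) by the Ighm share of the 5 constant region genes in bins of 0.05 (horizontal axis, from 1 on the left to 0 on the right), coloured by the class read from the end of the assembled heavy chain; dashed lines mark 0.9 and 0.1. The 104 IgM cells lie at the left edge and the 397 IgG cells at the right edge, with 105 cells between them.

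Among the IgG cells, Ighg1, the subclass gene of most responses to protein antigen in mice, held the most counts of the 4 subclass genes in 262 cells (66.0%). Ighg2b led in 87 (21.9%), Ighg2c in 31 (7.81%) and Ighg3 in 17 (4.28%). The IgM cells were shallower, with a median of 1283 genes and 53878 counts per cell outside the 5 genes, against 1620 genes and 68712 counts in IgG cells. Over the 12 plates, the per plate median count averaged 57424 ± 28246 in IgM cells and 73868 ± 34749 in IgG cells (SD), a difference of -16445 ± 8675 (SE) that did not pass the test (adjusted p = 0.221). The pools tested for gene expression held 139029 to 1120706 counts for IgM and 749697 to 4478369 for IgG. IgM made up 22.2 ± 5.84% of the classed cells on 10 C57BL/6M plates and 19.1 ± 7.07% on 9 C57BL/6F plates (SD; permutation test, two-sided, p = 0.307), a difference of 3.10 percentage points that did not pass the test. Plate 6 of C57BL/6F held no classed cell.

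Of the germinal centre markers, all 6 used (Bcl6, S1pr2, Mef2b, Gcsam, Rgs13 and Fas) had counts in both classes. Their summed level was 240 to 2568 CPM (counts per 1000000 counts of a pool, here without TMM scaling) in the 12 IgM pools (median 1669.8) and 1641 to 2669 CPM in the IgG pools (median 2166). The 6 plasma cell markers summed to a median of 197 CPM in IgM and 167 CPM in IgG pools and were mostly Xbp1, with Prdm1 and Prg2 at 0 in all IgM pools. The 4 markers of naive and memory B cells (Ccr6, Cd38, Klf2 and Ighd) summed to a median of 124 CPM in IgM pools (lowest 0, highest 435) and 24.7 CPM in IgG pools (lowest 0, highest 91.1). Ighd led this sum, with 46.1% of its counts in IgM and 42.3% in IgG pools. Unswitched cells can express Ighd beside Ighm, so the sum is not independent of the rule that chose the classes. The T cell list was nearly all Lck, at 99.95% of its counts in IgM and 99.1% in IgG pools, with Cd3d, Cd3g, Cd4, Cd8a and Thy1 at 0 in both. Myeloid markers reached at most 5.31 CPM in an IgM pool and 22.0 CPM in an IgG pool, and red cell and stromal markers at most 4.71 and 14.03 CPM.

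Over 28 measures of mutation, clones, state, cell cycle, sort gate, depth and surface stain, 5 (17.9%) differed between IgM and IgG cells within plates at an adjusted p under 0.05. These and all p-values of such measures below come from an exact two-sided sign-flip permutation test over 12 plates, adjusted by Benjamini and Hochberg over the 28 measures. IgM cells had fewer heavy chain mutations, fewer IGHV1-72 chains, fewer cells in clones of 2 or more, fewer LZtoDZ cells and a weaker GL7 stain. The minimum of 5 cells per plate counted all cells of a class. Measures of heavy chains and clones used only cells with an assembled heavy chain, so a plate value can rest on fewer cells.

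**Figure D2:**
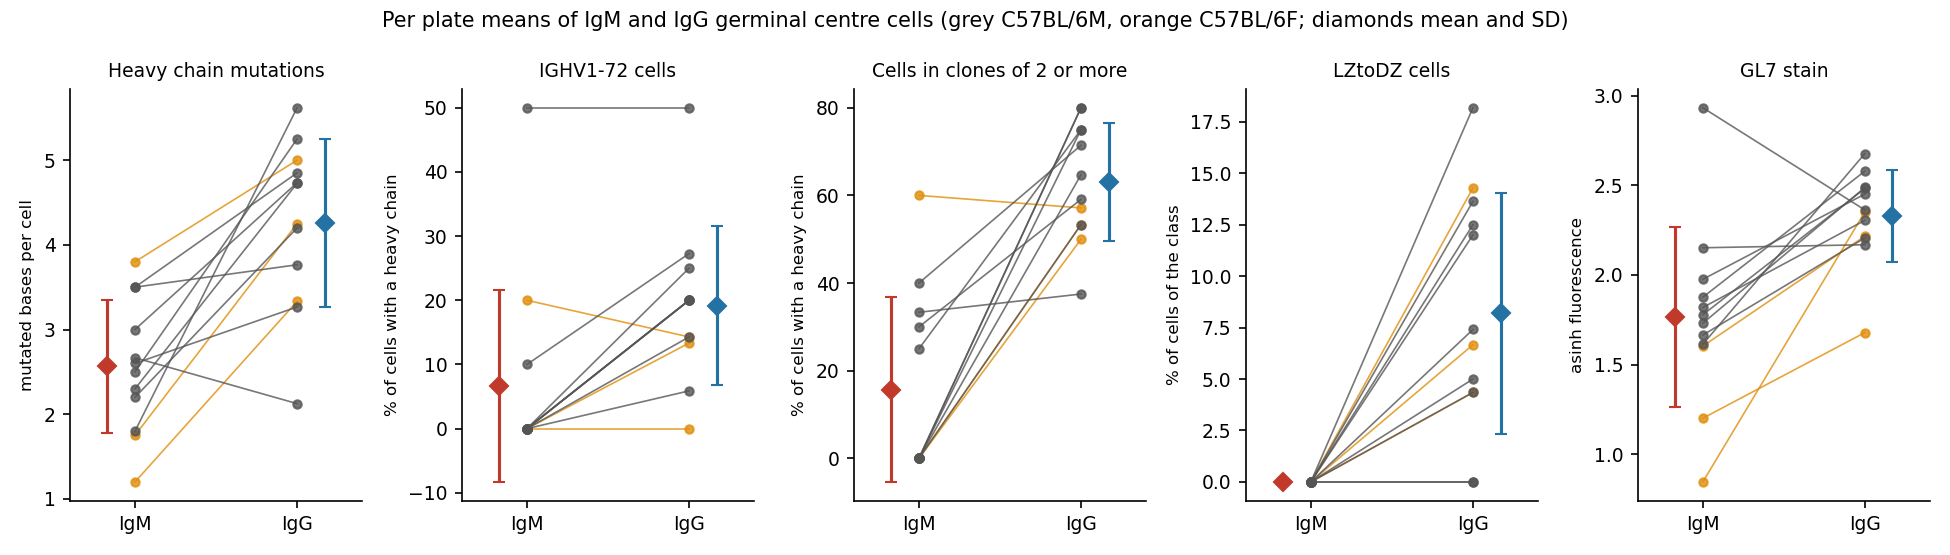
Each line joins the IgM value (left) and the IgG value (right) of 1 plate for the 5 measures that passed the test: mutated bases per heavy chain, percent IGHV1-72 chains, percent of cells in clones of 2 or more, percent LZtoDZ cells and asinh-transformed GL7 fluorescence. Diamonds and bars give the mean and SD over the 12 plates, grey lines are C57BL/6M and orange lines C57BL/6F; the IgM value was lower on 11, 9, 11, 10 and 11 plates.

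Heavy chain mutations are the differences of an assembled chain from its germline segments, the mark of somatic hypermutation in the germinal centre. The plate means ran from 1.2 to 3.8 mutations per cell in IgM cells (median 2.55) and from 2.13 to 5.62 in IgG cells (median 4.49). The mean was 2.57 ± 0.79 in IgM cells and 4.26 ± 0.99 in IgG cells (SD, 12 plates), a difference of -1.69 ± 0.34 (SE; permutation p = 0.00146, adjusted p = 0.0182). IgM cells were lower on 11 plates, and on plate 13 they were higher, with 2.67 against 2.13 in IgG cells.

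Cell by cell the classes overlapped widely. IgM cells had a median of 2 mutations (0 to 8, 70 cells) and IgG cells a median of 4 (0 to 16, 252 cells). Unmutated chains made up 22.9% of IgM cells (16 of 70) and 8.33% of IgG cells (21 of 252), and chains with 6 or more mutations made up 10% (7) and 31.3% (79). The share of mutated heavy chains per plate, 74.3 ± 21.1% in IgM and 90.6 ± 11.8% in IgG cells, missed the threshold after adjustment (permutation p = 0.0156, adjusted p = 0.0729). Replacement changes were 73.4% of the counted changes in IgM cells and 76.9% in IgG cells.

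**Figure D3:**
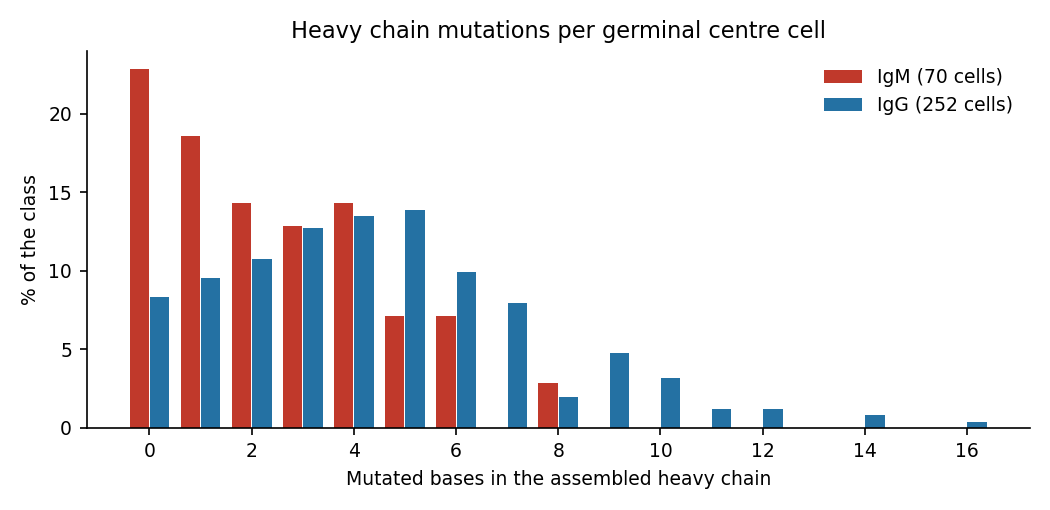
Share of cells of a class (vertical axis, percent) by the number of mutated bases in the assembled heavy chain (horizontal axis), for 70 IgM cells (red, left bar) and 252 IgG cells (blue, right bar). Unmutated chains are 22.9% of IgM and 8.33% of IgG cells, and no IgM chain has more than 8 mutations.

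The mutation difference was present in each zone by value. DZ cells had a median of 2 mutations in IgM (39 cells) and 5 in IgG (146 cells), and LZ cells 2 in IgM (31 cells) and 4 in IgG (80 cells). Light chains, which are mutated too, carried 2.07 ± 0.88 mutations in IgM and 2.60 ± 0.65 in IgG cells, a difference of -0.53 ± 0.28 (SE) that did not pass (adjusted p = 0.221). When the class was taken from the end of the assembled chain in place of the counts, heavy chain mutations averaged 3.11 in IgM and 4.08 in IgG cells, and the difference shrank to -0.97 and lost the call (permutation p = 0.0596, adjusted p = 0.208). That class takes in cells whose counts were mixed or few.

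IGHV1-72 chains made up 6.67 ± 15.0% of IgM cells and 19.2 ± 12.4% of IgG cells with an assembled heavy chain (SD, 12 plates), a difference of -12.5 ± 2.88 percentage points (SE; adjusted p = 0.0273). The IgM value was lower on 9 plates, equal on 2 and higher on 1. It was above 0 only on plate 7 (20%), plate 11 (10%) and plate 14 (50%), so the IgM mean rests on few cells. The 3 C57BL/6F plates had 6.67% in IgM and 9.21% in IgG cells, and the 9 C57BL/6M plates 6.67% and 22.5%. The call was lost when plate 11, 15, 19 or 20 was left out (adjusted p 0.0501 to 0.0547), and the class taken from the assembled end gave a difference of -7.62 percentage points (adjusted p = 0.189). Over all classed cells IGHV1-72 was found in 4 of 70 IgM cells, which used 40 V segments with IGHV1-26 and IGHV1-64 ahead at 6 cells each. It led the 55 V segments of the IgG cells with 40 of 252 cells, before IGHV1-22 with 34.

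Codon 33 of these chains is shown from germline and from 1 cell of each class, with the codon in capitals.
IGHV1-72 germline: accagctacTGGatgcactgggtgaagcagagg
IgM cell IGHV1-72: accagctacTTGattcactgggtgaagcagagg
IgG cell IGHV1-72: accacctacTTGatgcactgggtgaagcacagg
The codon was still TGG, tryptophan, in 3 of the 4 IgM cells and 22 of the 40 IgG cells. It was TTG, a leucine codon that differs by G113T, in 1 IgM cell and 12 IgG cells. In IgG cells it was also TTA (G113T and G114A, leucine) in 3 and TTT (G113T and G114T, phenylalanine) in 1, and it was not covered in 2. With 4 IgM cells the share of changed codons cannot be set against that of IgG cells.

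No 2 IgM cells were of the same clone, while many IgG cells were. The 70 IgM cells with a heavy chain fell into 70 clones of the authors' grouping, so 0 of 2415 IgM pairs shared a clone. The 252 IgG cells fell into 164 clones, of which 38 held 2 or more IgG cells (126 cells in all), with 16 cells in the biggest, and 263 of 31626 pairs (0.832%) shared one. Counting clonemates of any class in the series, 15.7 ± 21.1% of IgM cells and 63.0 ± 13.5% of IgG cells per plate were in clones of 2 or more, a difference of -47.4 ± 7.91 percentage points (SE; permutation p = 0.000977, adjusted p = 0.0182). With the class taken from the assembled end, the difference shrank and lost the call. Fewer IgM cells were sampled, which leaves an IgM clone fewer chances of a sampled member of its own class. The shares of pairs are already set against the number of pairs. The part of sampling in the other clone values was not tested.

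Members of both classes were found in 10 clones, 14.3% of the IgM clones and 6.10% of the IgG clones. In these the IgM cell had fewer mutations than the mean of its IgG clonemates in 4 clones and more in 6. In the 8 of them whose assembled ends matched the called classes it had fewer in 3 and more in 5. The classed members stood under both sampleIDs in 2 of the 10 clones and in 1 of the 8. Of the 135 clones with 2 or more cells in the series, 25 had members under both sampleIDs. Whether such members descend from the same cell was not tested.

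None of the 104 IgM cells was annotated LZtoDZ, the state between selection in the light zone and return to the dark zone, which allows a share of up to 2.88% by a count of 3 cells and 3.48% by the exact 95% limit. Among the IgG cells 35 of 397 were (8.82%, exact 95% interval 6.22 to 12.05), and among cells with a mixed share 11 of 105 (10.5%). Per plate the shares were 0% in IgM and 8.20 ± 5.85% in IgG cells (SD), a difference of -8.20 ± 1.69 percentage points (SE; IgM lower on 10 plates and equal on 2, permutation p = 0.00195, adjusted p = 0.0182). With the class read from the assembled end, 2 of 103 IgM cells (1.94%) and 31 of 320 IgG cells (9.69%) were LZtoDZ, and the difference over 12 plates was -9.19 percentage points (permutation p = 0.00781, adjusted p = 0.0649).

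LZtoDZ cells were deep, with a median of 2829 genes in IgG cells against 1560.5 in DZ and 1409 in LZ cells of that class. Among cells with 1500 or more genes, 0 of 44 IgM cells (allowing up to 6.82% by a count of 3 cells and 8.04% by the exact 95% limit) and 33 of 221 IgG cells (14.9%) were LZtoDZ. Over the 8 plates with enough such cells the difference was -12.6 percentage points (permutation p = 0.0312, adjusted p = 0.169). DZ cells were 55.4 ± 17.1% of IgM and 59.1 ± 12.4% of IgG cells, a difference of -3.65 ± 6.20 percentage points (SE; adjusted p = 0.703). LZ cells were 44.6 ± 17.1% of IgM and 32.7 ± 11.3% of IgG cells, a difference of 11.8 ± 6.12 (SE; permutation p = 0.0576, adjusted p = 0.221). The share in G1 was 53.6% in IgM and 50.2% in IgG cells, that in S 23.7% and 26.7%, and that in G2M 22.7% and 23.2%, and none of the 3 passed the test.

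GL7, a sialic acid epitope that rises on germinal centre B cells, was the one surface stain of 9 that passed. Its plate mean on the inverse hyperbolic sine scale ran from 0.845 to 2.93 in IgM cells (median 1.75) and from 1.68 to 2.68 in IgG cells (median 2.36). The means were 1.77 ± 0.50 and 2.33 ± 0.26 (SD), a difference of -0.57 ± 0.15 (SE; IgM lower on 11 plates, permutation p = 0.00537, adjusted p = 0.0301). Plate 18 went the other way, with 2.93 in IgM and 2.36 in IgG cells. The call was lost without plate 2, 7, 11, 15, 19 or 20 (adjusted p 0.0501 to 0.0602). It was also lost without LZtoDZ cells, where the difference was -0.50 (adjusted p = 0.0824), and with the class from the assembled end, where it was -0.30 (adjusted p = 0.226).

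The stains that mark the zones did not pass. CXCR4, the receptor that holds cells in the dark zone, was 2.36 ± 0.31 in IgM and 2.56 ± 0.12 in IgG cells, a difference of -0.20 ± 0.10 (SE; adjusted p = 0.221). CD86, a costimulatory ligand of light zone cells, was 2.07 ± 0.50 in IgM and 2.42 ± 0.19 in IgG cells, a difference of -0.35 ± 0.18 (SE; adjusted p = 0.221). CD38, which is low on germinal centre cells of mice, was 0.456 ± 0.310 in IgM and 0.506 ± 0.142 in IgG cells. CD138, the plasma cell proteoglycan, was 0.346 ± 0.201 in IgM and 0.239 ± 0.095 in IgG cells.

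Gene expression was compared on counts summed per plate and class. Of 4512 genes tested by edgeR's quasi-likelihood test with the plate as block and TMM scaling between pools, 7 (0.155%) passed an adjusted p under 0.05, 1 higher (0.0222%) and 6 lower (0.133%) in IgM cells. With equal numbers of cells per class on each plate, 2 were called higher (Ly6d and Igkc) and 0 lower, as among genes of 300 CPM or more, and the 6 lower genes no longer entered the test at equal cell numbers. A further 937 reached an unadjusted p under 0.05 without passing. No V, D or J segment passed among the 18 tested, though the V segments Igkv9-120 and Iglv1 were called lower under some alternatives.

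Ly6d, a small GPI-anchored protein of the Ly6 family known as a marker of early B lineage cells, was the gene that rose. It lies at chr15:74762056-74763620 on the minus strand. Its level was 200 to 2022 CPM in the 12 IgM pools (median 932) and 91.8 to 395 CPM in the IgG pools (median 279). The IgM pool was the higher one on all 12 plates, although the ranges overlapped and plate 20 had nearly the same level in both, 200 CPM in IgM and 198 CPM in IgG. The means were 975 ± 521 CPM in IgM and 249 ± 103 CPM in IgG pools (SD), and the log2 fold change was 1.86 ± 0.35 (SE, adjusted p = 0.0178).

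Ly6d was higher in IgM cells of both zones and both sampleIDs by value. With all cells of a kind summed, without TMM scaling, it was 674 CPM in IgM and 160.0 in IgG cells of the DZ, and 1158 in IgM and 380.2 in IgG cells of the LZ. C57BL/6M cells had 811 in IgM and 213 in IgG, and C57BL/6F cells 987 in IgM and 228 in IgG. Cells with a mixed share had 384. Ly6d had a count in 54 of 104 IgM cells and in 115 of 397 IgG cells. The call held under every omission of 1 plate (adjusted p 0.00595 to 0.0439). At equal cell numbers, which rest on 1 random draw of cells, it held with a larger estimate (3.64, adjusted p = 0.0474). It was lost with cells thinned to 10000 counts (1.74, adjusted p = 0.170), without LZtoDZ cells (1.78, adjusted p = 0.106), at shares of 0.98 and 0.02 (1.61, adjusted p = 0.463), at a heavy chain sum of 50 or more (1.92, adjusted p = 0.360), in G1 cells, in each zone alone, and within each sampleID (1.79, adjusted p = 0.112 in C57BL/6M and 1.99, adjusted p = 0.254 in C57BL/6F).

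**Figure D4:**
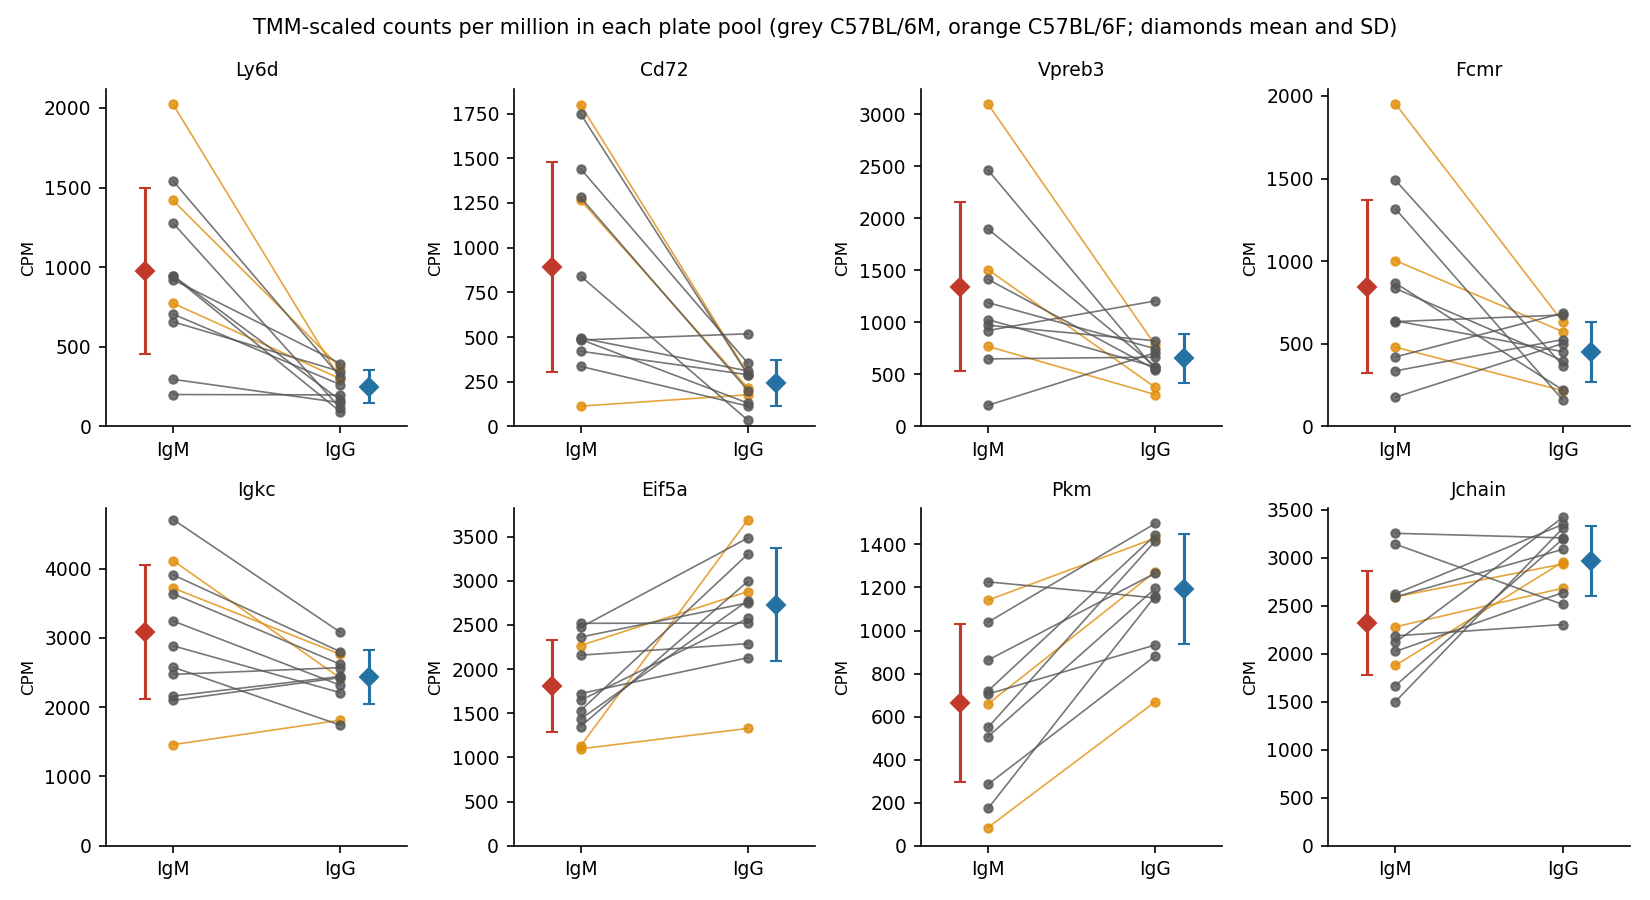
TMM-scaled CPM (vertical axes, from 0) of 8 genes in the IgM pool (left) and the IgG pool (right) of each plate, joined by a line; diamonds and bars are the mean and SD over 12 plates, grey C57BL/6M and orange C57BL/6F. Ly6d is higher in IgM on 12 of 12 plates and is the gene of the 8 that passed the test; Eif5a is lower in IgM on 12 of 12.

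The 6 genes called lower were rare transcripts found in few cells. They passed the filter on low counts only through the larger IgG pools, so their direction was set by that filter, and they are given as counts. Scn8a, a voltage-gated sodium channel gene, had 1 count in the 79 IgM cells and 1254 counts in 28 of the 245 IgG cells. The counts of these genes came from few cells and are not independent, so no ratio or interval is drawn from them. Tox, a nuclear factor best known from T cells, had 16 counts in 2 IgM cells and 1327 counts in 50 IgG cells. Dolpp1, a dolichyl pyrophosphate phosphatase, had 6 counts in 1 IgM cell and 723 in 24 IgG cells. Map2k3, a kinase of the p38 pathway, had 30 counts in 3 IgM cells and 1467 in 29 IgG cells. Coq6, an enzyme of coenzyme Q synthesis, had 124 counts in 2 IgM cells and 1369 in 23 IgG cells, and 3010026O09Rik had 49 in 2 and 1300 in 29. Each was at 0 in 9 to 11 of the 12 IgM pools and in at most 1 of the 12 IgG pools, and their fitted log2 fold changes of -6.97 to -8.28 depend on how a 0 is modelled. Of the 10 genes next in line by p, 9 (Nup37, 4921524J17Rik, Nifk, Arel1, Pex13, Ugp2, Chchd4, Sdccag8 and Nop2) had the same form, with 0 counts in 8 to 10 of the 12 IgM pools, and the tenth was Eif5a.

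That direction was shared by most genes of low abundance. The median log2 fold change was -1.42 over all genes tested, with 4247 below 0 and 265 above. Its size depended on the fit: on the same pools it was -0.34 without edgeR's estimateDisp step and -0.33 without the plate as block. In the main fit the median was -2.79 over 1058 genes under 50 CPM and -0.41 over 747 genes of 300 CPM or more. With equal numbers of cells in both classes of a plate the medians of these bands were -1.27 (127 genes tested) and -0.12 (744 genes), and that over all genes was -0.44. IgM pools held fewer and shallower cells, and the part of this in each lower gene was not tested.

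**Figure D5:**
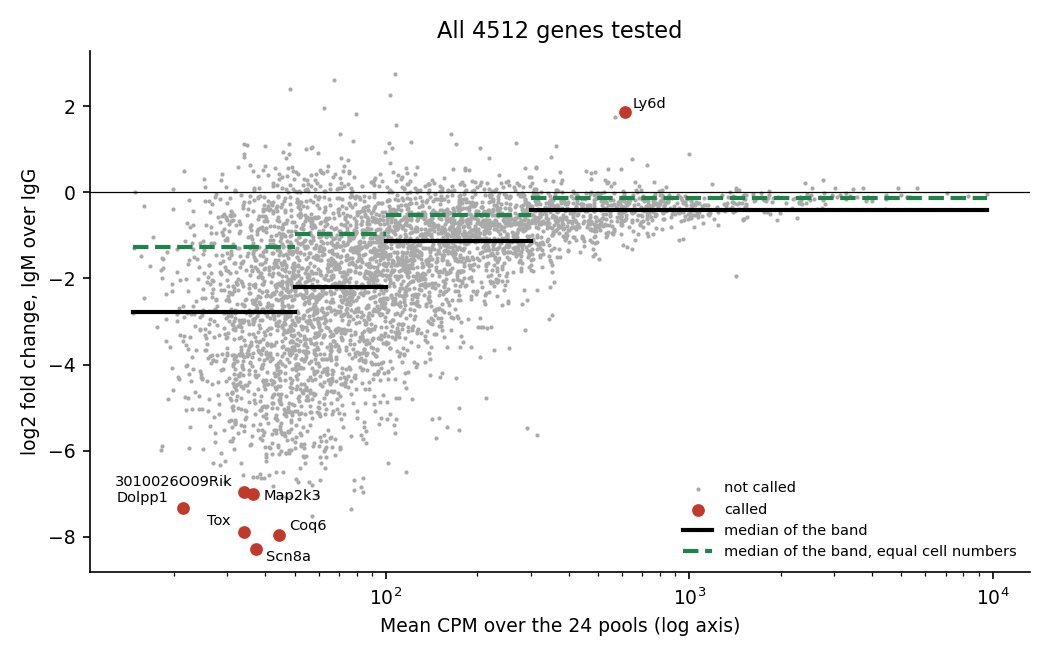
Log2 fold change of IgM over IgG pools (vertical axis) against the mean CPM (horizontal log axis) of the 4512 genes tested, with the 7 called genes in red; black lines are medians within bands of abundance and green dashed lines the same at equal cell numbers. The medians lie at -2.79 under 50 CPM and at -0.41 at 300 CPM or more, and Ly6d stands above 0.

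Genes with a count in every pool give the view least touched by zeros. Cd72, an inhibitory co-receptor of B cells at chr4:43446462-43454628, had 113 to 1799 CPM in IgM pools (median 668) and 34.4 to 518 CPM in IgG pools (median 251). It was higher in IgM on 10 of 12 plates. The log2 fold change was 1.75 ± 0.42 (SE) and lay at the threshold (adjusted p = 0.05005). Cd72 was called higher without the block, without estimateDisp, with DESeq2's size factors and with all immunoglobulin genes removed. At equal cell numbers (1.77, adjusted p = 0.995) and among genes of 300 CPM or more it was not called. Igkc, the kappa constant region, had 3082 ± 966 CPM in IgM and 2433 ± 387 CPM in IgG pools, 0.29 ± 0.11 log2 (adjusted p = 0.158), and passed at equal cell numbers (0.70, adjusted p = 0.0474) and among genes of 300 CPM or more. Vpreb3, a partner of the immunoglobulin chains in the ER, had 1342 ± 810 CPM in IgM and 654 ± 233 CPM in IgG pools (0.88 ± 0.30 log2, adjusted p = 0.125). Fcmr, the Fc receptor for IgM, had 846 ± 522 CPM in IgM and 451 ± 182 CPM in IgG pools (0.78 ± 0.37 log2, adjusted p = 0.234).

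Others in this range had lower values in IgM and did not pass either. Eif5a, a translation factor, had 1807 ± 524 CPM in IgM and 2726 ± 640.1 CPM in IgG pools, lower on 12 of 12 plates (-0.60 ± 0.14 log2, adjusted p = 0.05005). Pkm, the glycolytic pyruvate kinase, had 662 ± 368 CPM in IgM and 1193 ± 255 CPM in IgG pools (-1.11 ± 0.27 log2, adjusted p = 0.05005). Eif5a and Pkm were called lower with all immunoglobulin genes removed. At equal cell numbers they were not (-0.42 and -0.97 log2, adjusted p = 0.995 and 0.857). Tnfrsf13c, the BAFF receptor, had 716 ± 438 CPM in IgM and 1187 ± 315 CPM in IgG pools (-1.09 ± 0.31 log2, adjusted p = 0.0821). Npm1, a nucleolar chaperone, had 963 ± 459 CPM in IgM and 1528 ± 468 CPM in IgG pools (-0.77 ± 0.24 log2, adjusted p = 0.0963). Jchain, which joins secreted IgM and IgA, had 2321 ± 541 CPM in IgM and 2965 ± 359.9 CPM in IgG pools (-0.38 ± 0.12 log2, adjusted p = 0.103).

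The IgM class lacked LZtoDZ cells, in which these 5 genes did not all go the same way. In summed cells Pkm was 1442 CPM in LZtoDZ IgG cells, against 945.5 in DZ and 877 in LZ IgG cells, and Npm1 was 1912 against 1124 and 1316. Eif5a was 2613 against 2121 and 2386. Tnfrsf13c was lower there, at 893 CPM against 1016 and 1270.4, and Jchain at 1540.2 against 3048 and 2258. In LZ cells alone Pkm was 904 in IgM and 877 in IgG, and in DZ cells 685 in IgM and 945.5 in IgG. Npm1 was lower in IgM in both zones by value, with 991 in IgM and 1124 in IgG cells of the DZ and 1234 in IgM and 1316 in IgG cells of the LZ. Without LZtoDZ cells no gene was called, with 530 at an unadjusted p under 0.05, while the fold change of Ly6d was 1.78 against 1.86 with them. The part of LZtoDZ cells in these values was not tested.

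Of 26 gene lists, none had a member that passed, against 0.155% of all genes tested. In the list of B cell receptor signalling, 4 of 28 tested members lay above 0 and the median was -0.78 log2, beside -1.42 over all genes. Cd79a and Cd79b, the signalling chains of the receptor, had 3894 ± 1309 and 3198 ± 1016 CPM in IgM and 3559 ± 795 and 2873 ± 600.5 CPM in IgG pools, at 0.10 ± 0.10 and 0.09 ± 0.11 log2. Of 5 tested Fc and immunoglobulin receptor genes, Fcmr and Fcrla lay above 0. Fcgr2b, the inhibitory receptor for IgG, had 222 ± 180.2 CPM in IgM and 278 ± 133 CPM in IgG pools (-0.97 ± 0.90 log2, adjusted p = 0.473).

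The germinal centre identity list had 17 tested members, all below 0, with a median of -1.23 log2 and -0.43 at equal cell numbers. Both values are near those of all genes tested, of which 4247 of 4512 lay below 0, with medians of -1.42 and -0.44, so this says nothing particular to the list. S1pr2, a receptor that confines cells to the germinal centre, had 182 ± 121 CPM in IgM and 193 ± 103 CPM in IgG pools (-0.40 ± 0.94 log2). The median of the class switch and hypermutation list was -1.29 log2 over 16 members, and -0.19 at equal cell numbers.

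The list of the light zone, CD40 and NF-kappa-B had a median of -2.10 log2 over 16 members and -1.41 at equal cell numbers. That of the dark zone list was -1.59 over 12 members and -0.58 at equal cell numbers. Over all genes tested these medians were -1.42 and -0.44. Among genes of 300 CPM or more the light zone list had a median of 0.08 log2 over 3 members. The dark zone list had -1.06 over 3 members, beside -0.20 over all 747 such genes. Cd83, a light zone marker, had 1867 ± 560.2 CPM in IgM and 1809.6 ± 529 CPM in IgG pools (0.03 ± 0.18 log2). Cd40, the receptor for T cell help, had 170 counts in 5 IgM pools and 2267 counts in 12 IgG pools. Myc, which marks cells selected by T cell help, had 141 counts in 4 IgM pools and 2036 counts in 12 IgG pools. Both genes passed the filter on low counts through the larger IgG pools, which set their direction. They are therefore given as counts, and T cell help was not tested by them. In summed cells Myc was 34.6 CPM in IgM cells and 79.2 in IgG cells, and 190 in LZtoDZ IgG cells. In the DZ it was 35.3 in IgM and 42.7 in IgG cells, and in the LZ 33.4 in IgM and 62.5 in IgG cells. These zone values rest on few cells with a Myc count, 6 IgM and 17 IgG in the DZ and 3 IgM and 14 IgG in the LZ. In the LZ the largest cell held 60.4% of the IgM counts and 32.2% of the IgG counts.

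The Myc target and ribosome biogenesis list had all 22 tested members below 0 (median -1.02 log2, -0.79 at equal cell numbers), and the glycolysis list all 11 (median -1.11 and -0.75). Beside them stand 4247 of 4512 genes tested below 0, with medians of -1.42 and -0.44. The S phase list had a median of -0.83 log2 over 25 members and the G2 and M phase list -1.46 over 27. Mki67, a marker of dividing cells, had 289.9 ± 214 CPM in IgM and 339.9 ± 178 CPM in IgG pools (-0.61 ± 0.60 log2). The MHC class II list had a median of -0.11 log2 over 12 members (0.10 at equal cell numbers), and the mitochondrial genome list -0.02 over 7 (0.24 at equal cell numbers). H2-Ab1, a class II chain, had 8062 ± 1616 CPM in IgM and 8573 ± 1840.5 CPM in IgG pools (-0.08 ± 0.07 log2).

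Genes of naive and memory cells were mostly too low to test. Ighd, the IgD constant region that unswitched cells can express beside Ighm, had 516 counts in 8 of 12 IgM pools and 414 counts in 6 of 12 IgG pools. In all classed cells summed it was 86.8 CPM in IgM and 12.7 CPM in IgG cells. In C57BL/6M it was 85.8 CPM in IgM and 22.0 CPM in IgG cells, and in C57BL/6F 89.0 CPM in IgM cells and 1 count in the 187 IgG cells. Its counts came from 18 of 104 IgM and 9 of 397 IgG cells, with 52.0% of the IgG counts in 1 cell. It did not pass the filter on low counts, and its part in the lower mutation, clone and GL7 values of IgM cells was not tested. Its reads may include transcripts that also carry Ighm exons. Ccr6 had counts in 3 IgM and 2 IgG pools and Cd38 in 5 and 3. Fcer2a, which encodes CD23, was tested, at 468 ± 395 CPM in IgM and 518 ± 244 CPM in IgG pools (-0.91 ± 0.66 log2). Bcl6 had counts in 6 of 12 IgM pools and in all IgG pools, and Tbx21 and Prdm1 in no IgM pool and in 3 and 4 IgG pools. Xbp1 had 228 ± 228 CPM in IgM and 209.9 ± 72.2 CPM in IgG pools. Its fitted log2 fold change was -0.93 ± 0.88 although its mean was higher in IgM pools, and it was 0.46 at equal cell numbers.

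Whether the IgM to IgG difference was another one in germinal centre cells than in annotated plasma cells was tested as an interaction, with 12 plates of germinal centre pools, 6 IgM plasma pools and 19 IgG plasma pools. None of 8873 genes passed (0%) by edgeR's quasi-likelihood test, and 461 had an unadjusted p under 0.05. Without a filter on low counts 22 passed, and with pools of at least 3 cells 8. For Ly6d the fitted difference in germinal centre cells exceeded that in plasma cells by 1.28 ± 0.46 log2 (SE, adjusted p = 0.766). In summed cells Ly6d was 1813 CPM in IgM and 758 in IgG plasma cells. Cd72 was 117 in IgM and 11.8 in IgG plasma cells, and Fcmr 400.0 in IgM and 54.7 in IgG plasma cells, so both were higher by value in IgM cells of the plasma class too. The Cd72 counts came from 13 of 73 IgM and 11 of 338 IgG plasma cells, with 43.4% of the IgG counts in 1 cell. Those of Fcmr came from 35 IgM and 39 IgG plasma cells. Vpreb3 was lower by value there, with 208 CPM in IgM and 404 CPM in IgG plasma cells. Its fitted difference in germinal centre cells exceeded that in plasma cells by 3.19 ± 0.70 log2 (SE, unadjusted p = 3.89e-05, adjusted p = 0.208).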

How the data were processed

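FB5P-seq libraries, in which transcript 5′ ends are counted and the antibody chains of each well assembled, were preamplified for 22 cycles (per the labels). The deposited matrix holds raw counts for 16047 genes and 1367 cells, made with STAR 2.5.3a, HTSeq 0.9.1 and mm10 per the submitters' processing notes; how cells were filtered is not given in the sources used here. The deposited spike-in share is a fraction of each cell's counts, fluorescence is deposited as an inverse hyperbolic sine score, and state, phase, mutations, V segments and clones are the authors'. If the states were made from the same transcripts, they are not independent of the genes. Plates in the table of cells carry numbers that match no title, so their sampleID came from the letter in the column Sexe.

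The 5 selecting genes were removed, and counts were summed per plate and class with at least 5 cells per pool. Genes were filtered by filterByExpr, scaled by TMM and tested in edgeR 4.0.16 (estimateDisp, glmQLFit and glmQLFTest, R 4.3.3) with the plate as block, at a Benjamini-Hochberg adjusted p under 0.05. IgM and IgG pools of a plate share its handling, which is the pairing. Per plate measures used a sign-flip permutation test (scipy 1.17.1). CPM values are TMM-scaled, and log2 values carry edgeR's small prior count. Each well held 1 sorted cell, and no doublet caller was run. Intervals are exact Clopper-Pearson at 95%, and a count of 0 allows 3 cells; both cover counting error only. Scripts were tested on simulated data. Alternatives were DESeq2 1.42.0, other filters, cut-offs, pool sizes, thinning to 10000 counts, equal cell numbers, single zones and single sampleIDs. Equal cell numbers were made by 1 random draw of cells, so every value at equal cell numbers rests on that draw. Sums under a class hold whole wells, so fewer transcripts per cell and fewer cells cannot be told apart from a pool value alone. Named genes were all called genes, the 10 next by p, up to 3 per list by p, and 24 chosen by name; 103 in all, with the ones printed here picked from these. The members and the 26 lists were chosen with earlier results of these data known. Some markers are not reported here.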

Additional observations from a re-analysis of the deposited data

How the results depend on the processing

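The count of called genes rested on the processing. The 7 genes called became 1146 (18 higher and 1128 lower in IgM) with DESeq2, 799 (2 and 797) with pools of at least 3 cells, 87 (4 and 83) with no filter on low counts and 26 (2 and 24) with all immunoglobulin genes removed. Between 2 and 24 were called when 1 plate was left out. They became 2, both higher, at equal cell numbers and among genes of 300 CPM or more, which reverses the balance of directions. They became 4 on C57BL/6F plates, 2 in light zone cells and 1 each on C57BL/6M plates and in dark zone cells with at least 3 per pool, all lower. The V segment Iglv1 was among those on C57BL/6F plates and in light zone cells, and the call on C57BL/6M plates was Igkv9-120. Igkv9-120 was also called without the block and without estimateDisp, and Iglv1 without estimateDisp. They became 0 at shares of 0.98 and 0.02 (382 at an unadjusted p under 0.05), at a heavy chain sum of 50 or more (424), with thinned cells (182), without LZtoDZ cells (530), in G1 cells (50) and in light zone cells with at least 3 per pool (128). Without the replicate block (the pairing by plate) 5 were called, 2 higher and 3 lower, of which 3 were among the 7. DESeq2's size factors gave 9 (3 higher and 6 lower), all 7 among them. Pools of at least 8 cells gave 7 (4 higher and 3 lower) and the fit without estimateDisp 5 (2 higher and 3 lower), each with 1 of the 7 among them. DESeq2 and the smaller pools called mostly genes that were lower in IgM; the cause was not tested. The median of all genes moved from -1.42 to -0.33 log2 without the block and to -0.34 log2 without estimateDisp. Dark zone cells alone with at least 5 per pool were held in both classes by too few plates and were not run. List members called were 0 in the report and 59 with DESeq2, 38 with pools of at least 3 cells, 9 with no filter, 3 without immunoglobulin genes, 2 with DESeq2's size factors, 0 to 2 when 1 plate was left out, and 1 each without estimateDisp, without the block, at equal cell numbers, in light zone cells and among genes of 300 CPM or more.

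The 5 called measures kept their sign under every alternative that gave a value, and the smaller designs mostly lost the call after adjustment. The class from the assembled end kept 12 plates, and all 5 calls were lost there too. With pools of at least 3 cells (18 plates) all 5 were called, and light chain mutations with them (-0.78, adjusted p = 0.0293). Measures called numbered 3 to 8 when 1 plate was left out, 3 without LZtoDZ cells, 2 in dark zone cells and 0 under each other alternative. The smallest possible p was 0.25 on 3 C57BL/6F plates, 0.0625 at shares of 0.98 and 0.02 (5 plates) and 0.0312 with 1 cell per clone (6 plates) and in light zone cells (6 plates), so those losses say nothing about stability. In the order shares of 0.98 and 0.02, heavy chain sum of 50, C57BL/6F, C57BL/6M, assembled class, 1500 genes or more, and 1 cell per clone, the LZtoDZ difference was -4.03, -9.36, -8.43, -8.12, -9.19, -12.6 and -10.3 percentage points, and -7.83 without IGHV1-72 cells. In the same order, that of heavy chain mutations was -1.75, -1.67, -1.94, -1.61, -0.97, -1.91 and -2.003, with -1.29 without IGHV1-72 cells, -2.19 in dark zone cells and -0.72 in light zone cells. That of IGHV1-72 cells was -13.0, -16.6, -2.54, -15.8, -7.62, -16.5 and -14.1, with -11.7 in light zone cells. That of cells in clones was -39.6, -40.1, -33.5, -52.0, -26.5, -37.9 and -36.7, with -44.6 without IGHV1-72 cells and -23.1 in light zone cells. That of GL7 was -0.85, -0.50, -0.87, -0.46, -0.30, -0.58 and -0.60, with -0.50 without LZtoDZ cells, -0.61 without IGHV1-72 cells, -0.49 for the dark zone and -0.54 for the light zone. Leaving out 1 plate gave -8.94 to -7.29 for LZtoDZ cells, -1.89 to -1.50 for mutations, -14.2 to -11.4 for IGHV1-72, -51.9 to -44.4 for clones and -0.67 to -0.48 for GL7.

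The alternatives added after seeing the data are those without LZtoDZ or IGHV1-72 cells, in G1 cells, in single zones with at least 3 cells, among genes of 300 CPM or more, with the assembled class, with 1500 genes or more, with 1 cell per clone and with 1 plate left out. The interaction with plasma cells gave 0 genes, 22 with no filter and 8 with pools of at least 3 cells. The IgM share by sampleID passed no test under either alternative. With 5 to 11 IgM cells per pool, a gene found in few cells often has 0 counts in IgM, so a lower call of such a gene rests on the larger IgG pools.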

Other observations

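The sort gates, the light chain class and the remaining stains gave no call between the classes. Cells from the dark zone gate were 45.02 ± 22.3% of IgM and 40.5 ± 10.03% of IgG cells per plate (SD, 12 plates), those from the light zone gate 40.9 ± 20.8% and 47.7 ± 9.35%, and those from the pre-plasma gate 12.9 ± 10.1% and 11.7 ± 8.23%. Lambda light chains, known from the early response to NP in this strain, were found in 5.44 ± 10.2% of IgM and 11.1 ± 10.4% of IgG cells, a difference of -5.64 ± 3.37 percentage points (SE; permutation p = 0.129, adjusted p = 0.301). B220 was 1.58 ± 0.15 in IgM and 1.66 ± 0.13 in IgG cells on the inverse hyperbolic sine scale, and PSGL1 0.155 ± 0.119 and 0.152 ± 0.085. The spike-in share was 5.91 ± 2.70% of counts in IgM and 5.03 ± 1.405% in IgG cells (permutation p = 0.166).

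Whether a difference between the classes was another one under C57BL/6M than under C57BL/6F was tested by an exact permutation of the sampleIDs over the 12 plates. No measure passed after adjustment. The share of cells with a mutated heavy chain had the smallest p: the difference was -8.79 percentage points on 9 C57BL/6M plates and -38.9 on 3 C57BL/6F plates (two-sided permutation p = 0.0455, adjusted p = 0.382). The difference in LZ cells was 4.73 percentage points on C57BL/6M plates and 33.2 on C57BL/6F plates (permutation p = 0.0545, adjusted p = 0.382).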
